A study of Mus musculus with 6 samples.

Results

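The 34 genes described here are marker genes of white blood cells, measured in kidney cells that had been sorted for the endothelial surface protein CD31 (Pecam1). They were taken from the table by gene name, and make up 34 of the 55487 genes in the deposited FPKM table (fragments counted for a gene, scaled to its length and to the library size). Each symbol occurs there once. They comprise 5 B cell genes, 8 T and NK cell genes, 17 macrophage and monocyte genes, 2 neutrophil genes and 2 genes of leukocytes in general. The I-PpoI group was 3 mice labelled as carrying VE-cadherin Cre with a STOP-I-PpoI allele, given as ROSA26, ROSA27 and ROSA28 in mice 1, 2 and 3. I-PpoI is a homing endonuclease that cuts DNA, and the stop cassette places its expression under the Cre. The control group was 3 wild-type littermates. All 6 mice went onto a high-fat diet with 60% of calories from fat at 8 weeks of age and stayed on it for 4 weeks, and endothelial cells were taken from collagenase-digested whole kidneys with CD31 magnetic beads. The labels do not say whether the Cre is inducible. Sets of 3 values below stand in the order of mice 1, 2 and 3 of the group named.

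White blood cells carry the phosphatase CD45, encoded by Ptprc, and are told apart by their antigen receptors and uptake receptors. B cells signal through immunoglobulin joined to the Cd79a and Cd79b chains, and T cells through a T cell receptor joined to the CD3 chains. Kidney macrophages lie close to the capillaries whose endothelium the sorting collects, and they make the complement component C1q and the Fc receptor chain Fcer1g. CD31 itself is known on platelets, monocytes, neutrophils and some lymphocytes as well as on endothelium. Blood cells descend in the embryo from a hemogenic endothelium that uses VE-cadherin, so a VE-cadherin Cre that is active from early development is known to mark blood cells too. In bulk RNA, fewer cells of a type and less RNA per cell cannot be told apart.

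The libraries were unequal in fragments assigned to genes, in strand and in mitochondrial RNA. FPKM times exon length, divided by a constant fitted for each library to give whole numbers, was whole for all 34 members in every library (within 0.05). The totals were 1590957, 834149 and 13324303 fragments in I-PpoI mice, against 14081222 to 16954480 in the controls. Antisense gene models held 14.7, 10.02 and 0.119% of the fragments in I-PpoI mice, against 0.197 to 0.225% in controls. Genes of the minus strand took 68.2, 70.6 and 0.0821% of mitochondrial fragments in I-PpoI mice, against 0.0473 to 0.0664% in controls. In I-PpoI mice 1 and 2 a gene's value may therefore hold fragments of a neighbour on the other strand, and may hold only a remainder of the gene's own. The first does not apply to the 24 of 34 members with no such neighbour within 5 kb, but the second does. Mitochondrial genes held 6.42, 38.2 and 48.2% of fragments in I-PpoI mice, against 8.83, 15.1 and 18.3% in controls. Cd3e, Csf1r and Cx3cr1 share exon sequence with a gene on the opposite strand, and 7 others have one within 5 kb. Of the 34 members, 20 had under 10 fragments in I-PpoI mouse 1 and 24 had under 10 in I-PpoI mouse 2, against 8 in control mouse 1. Cdh5, the VE-cadherin gene, was at 137.7 ± 67.7 FPKM in I-PpoI mice and 307 ± 35.3 in controls (SD, n = 3 each), and the tubule receptor Lrp2 was at 0.784, 14.3 and 66.5 FPKM in I-PpoI mice, against 2.33 to 3.65 in controls. Summed FPKM of 8 proximal tubule genes ran from 101 to 1079 in I-PpoI mice and from 228 to 878 in controls. Fragments of Xist, made by females, numbered 0, 70 and 4739 in I-PpoI mice, against 0 to 4 in controls, and those of Y-linked Ddx3y 20, 0 and 0 in I-PpoI mice, against 959 to 1672 in controls, so I-PpoI mouse 1 had the pattern of the controls and I-PpoI mice 2 and 3 the other one. The part of assigned fragments, strand, mitochondrial share, tubule RNA and sex in the results below was not tested.

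Promoter sequences of 4 members are shown as examples of both patterns that follow. C1qb, C1qc and Ctss are macrophage genes that were low together in control mouse 1. Cd79a is a B cell gene that was lower in the I-PpoI libraries. Each sequence runs 5′ to 3′ from 250 bases before the RefSeq start of the gene to 50 after it (build GRCm38.p6). Capitals mark GAGGAA or its reverse complement TTCCTC, a core of sites bound by PU.1, the ETS factor of myeloid and B cells, which contains the GGAA that other ETS factors also use.
C1qb: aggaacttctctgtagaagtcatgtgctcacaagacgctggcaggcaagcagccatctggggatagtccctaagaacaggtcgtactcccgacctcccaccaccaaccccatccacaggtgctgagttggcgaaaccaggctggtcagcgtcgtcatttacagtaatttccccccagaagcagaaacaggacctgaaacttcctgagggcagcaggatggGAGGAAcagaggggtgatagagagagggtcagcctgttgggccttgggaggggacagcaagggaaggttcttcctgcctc
C1qc: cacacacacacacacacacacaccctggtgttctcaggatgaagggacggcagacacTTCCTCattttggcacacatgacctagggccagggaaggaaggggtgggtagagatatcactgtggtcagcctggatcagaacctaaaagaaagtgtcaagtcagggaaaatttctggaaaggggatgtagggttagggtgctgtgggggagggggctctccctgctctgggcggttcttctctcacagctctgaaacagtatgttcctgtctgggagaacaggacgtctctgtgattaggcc
Ctss: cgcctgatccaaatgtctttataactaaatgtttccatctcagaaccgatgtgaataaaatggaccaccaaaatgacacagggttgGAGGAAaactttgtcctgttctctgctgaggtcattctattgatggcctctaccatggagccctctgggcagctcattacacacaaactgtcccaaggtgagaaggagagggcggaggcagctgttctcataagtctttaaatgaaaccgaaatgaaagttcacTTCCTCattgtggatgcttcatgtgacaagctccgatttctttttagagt
Cd79a: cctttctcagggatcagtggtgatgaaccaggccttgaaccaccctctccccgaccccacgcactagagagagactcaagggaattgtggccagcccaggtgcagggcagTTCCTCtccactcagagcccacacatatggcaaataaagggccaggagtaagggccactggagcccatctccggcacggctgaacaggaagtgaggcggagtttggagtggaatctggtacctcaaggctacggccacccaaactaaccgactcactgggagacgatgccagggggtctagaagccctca
The C1qb window lies at chr4:136886151-136886450 and the C1qc window at chr4:136892865-136893164, both on the minus strand. Ctss lies at chr3:95526536-95526835 and Cd79a at chr7:24897247-24897546, both on the plus strand. The Ctss window holds 2 such matches and the other windows 1 each. Of the 23 members with a promoter in the RefSeq table, 16 hold a match on either strand in at least 1 listed promoter. Among them are 8 of 12 macrophage and 4 of 6 T and NK cell genes. Of all 32851 promoters of this length, 28.3% hold a match. That share is counted by promoter and the members by gene, so the counts are not in the same unit. Every window shown holds a match, but Cx3cr1, Fcer1g, Itgax and Lyz2, macrophage genes also low in control mouse 1, hold none. C1qa has no promoter in that table. A match is a description of the letters and not a site shown to be bound.

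**Figure D1:**
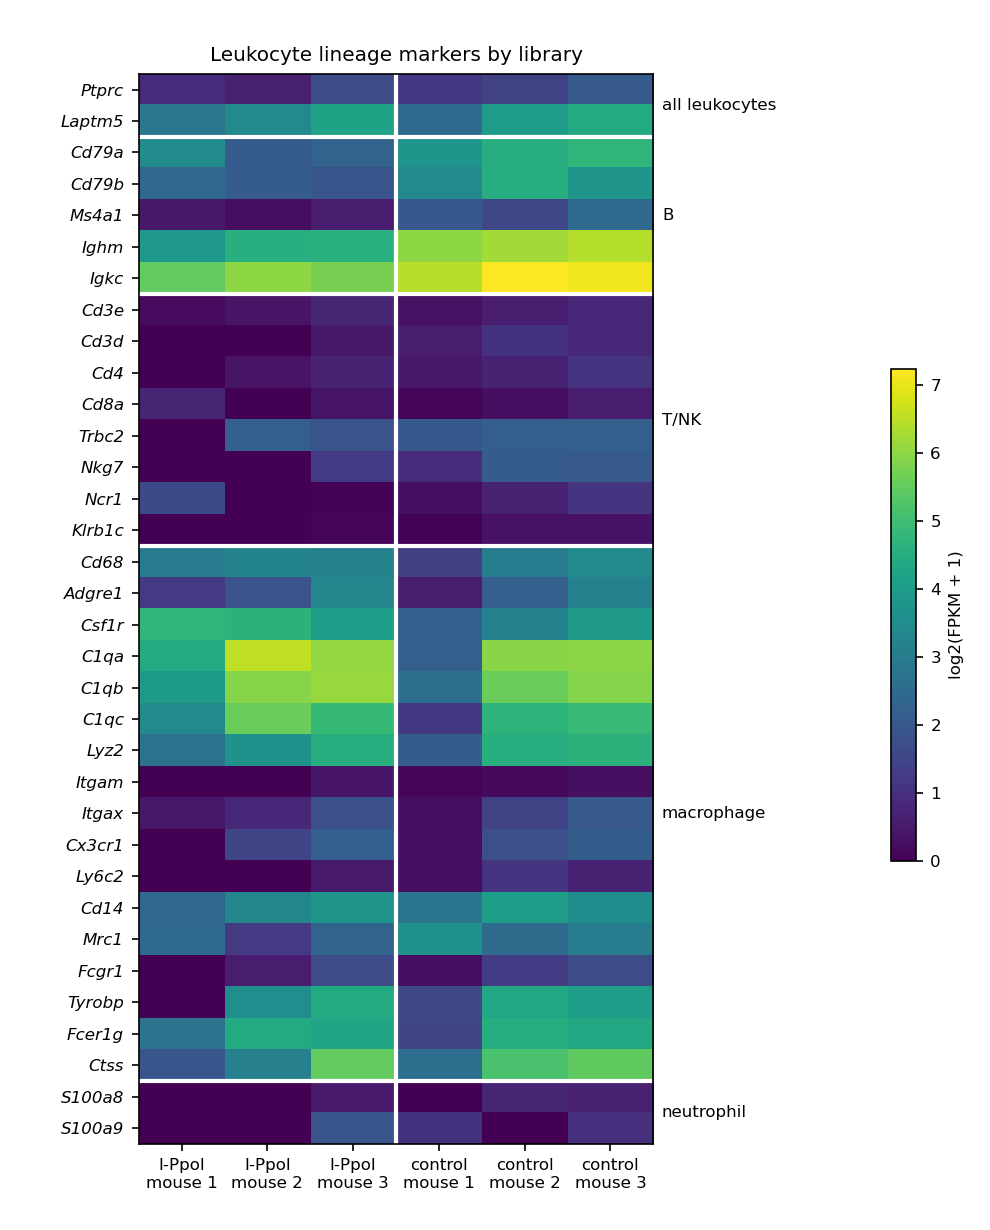
Level of each of the 34 members (rows, grouped by lineage) in each library (columns), as log2(FPKM + 1) in color. B cell genes are darker (lower) in the 3 I-PpoI columns than in the 3 control columns, while 9 of 17 macrophage genes have their lowest value of all libraries in control mouse 1. How many of all genes did so was not computed.

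As deposited, the B cell genes were lower in I-PpoI than in control libraries, without passing the adjusted test. Cd79a, a signalling chain of the B cell receptor (ENSMUSG00000003379, chromosome 7, 24897381 to 24902197), was at 10.3, 3.28 and 3.91 FPKM in I-PpoI mice, against 12.96, 21.6 and 25.5 FPKM in controls. Its partner Cd79b (chromosome 11, 106311341 to 106314762) was at 4.36, 3.34 and 2.67 FPKM in I-PpoI mice, against 9.64, 21.6 and 12.8 FPKM in controls. Ms4a1, which encodes CD20 on mature B cells, was at 0.403, 0.193 and 0.461 FPKM in I-PpoI mice, against 2.98, 1.96 and 4.55 FPKM in controls. In all 3 genes every I-PpoI library lay below every control library. These levels rest on few fragments in I-PpoI mice 1 and 2: Cd79a had 24, 4 and 76 fragments in I-PpoI mice and 305, 443 and 630 in controls.

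The immunoglobulin constant regions gave the same order of groups. Ighm, the heavy chain of IgM (chromosome 12, 113418558 to 113422730), was at 13.6, 22.1 and 23.3 FPKM in I-PpoI mice, against 63.7, 73.9 and 85.6 FPKM in controls. Igkc, the kappa light chain (chromosome 6, 70726435 to 70726966), was at 44.5, 62.8 and 52.5 FPKM in I-PpoI mice, against 86.4, 149.7 and 134 FPKM in controls. Per length, Igkc stood at 3.29, 2.84 and 2.25 times Ighm in I-PpoI mice and at 1.36, 2.03 and 1.57 times in controls, a ratio within each library that was looked at after its values were seen and not tested. Kappa chains are used by B cells of every heavy chain class and by plasma cells.

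Limma on log2(FPKM + 1), adjusted by Benjamini-Hochberg over the 14962 genes averaging 1 FPKM or more, called 0 of the 24 members that passed this filter, beside 0% of all genes tested in either direction. At unadjusted p under 0.05, 5 of the 5 B cell genes were lower, against 32.5% of all genes tested. Their log2 fold changes ran from -1.89 for Ighm (SE 0.33, limma adjusted p = 0.124) through -1.76 for Cd79b (SE 0.38), -1.71 for Cd79a (SE 0.48) and -1.58 for Ms4a1 (SE 0.38) to -1.17 for Igkc (SE 0.34), with the same adjusted p. The 5 B cell genes had groups that did not overlap, on the lower side, which was so for 45.1% of all genes tested, and the median over all genes tested was itself -0.65. The median of 12 endothelial genes was -1.49, with 9 of them lower in every I-PpoI library, and that of the 5 B cell genes was -1.71. With median-of-ratios scaling, which brings that median to 0.015, the B cell genes had log2 fold changes from -1.17 for Ms4a1 to -0.33 for Igkc, and 3 of 5 (Cd79b, Ms4a1 and Ighm) did not overlap, against 9.76% of all genes on the lower side. Scaled to a common total without mitochondrial genes, they ran from -2.06 for Ighm to -1.35 for Igkc, and 5 of 5 did not overlap. With that total, 2385 of the 14962 genes lay lower without overlap, and the median over all genes was -0.76. A set of 3654 strand-clear genes, chosen after the values were seen, was scaled by median of ratios. In it Cd79a was at -0.68 and Cd79b at -0.75 and both overlapped, beside 9.39% of genes there that lay lower and 5.5% that lay higher without overlap. Without I-PpoI mouse 3, 5 of 5 passed with limma adjusted p from 0.00385 for Ighm to 0.0450 for Igkc, in a fit that called 36.8% of all genes lower.

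**Figure D2:**
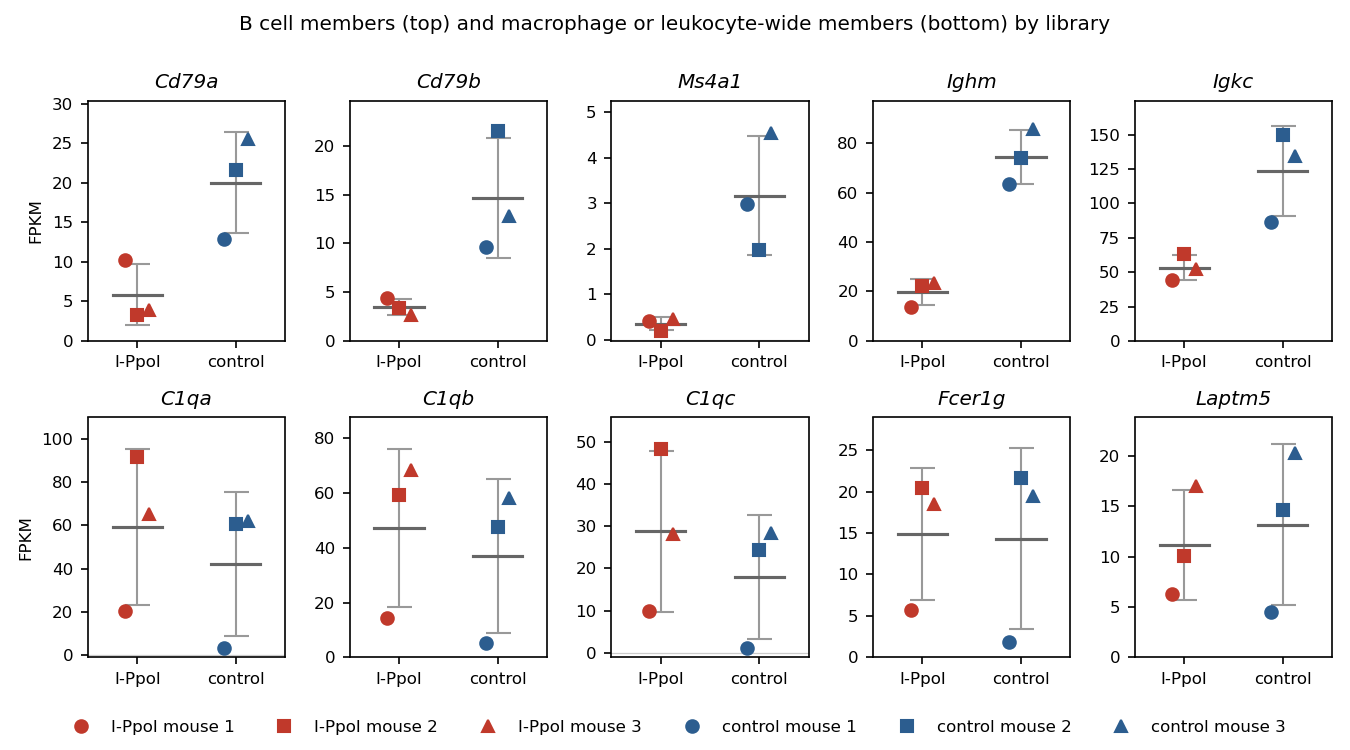
FPKM of 5 B cell genes (top) and 5 genes of macrophages or of leukocytes in general (bottom) in each mouse, with group mean and SD (n = 3 each). I-PpoI and control points are apart in the top row, whereas in the bottom row control mouse 1 and I-PpoI mouse 1 are the lowest of their groups and the groups overlap.

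Other B cell genes, from a list of 18 that are not among the 34, gave a similar count. Of 14 tested, 0 passed, 11 had I-PpoI libraries all below the controls, beside 45.1% of all genes tested, and the median log2 fold change was -1.22, against -0.65 for all genes tested. With median-of-ratios scaling 6 of 14 did not overlap, on the lower side, beside 9.76% of all genes, and the median was -0.77. Ighd, the heavy chain of IgD, was at 7.55, 1.88 and 3.79 FPKM in I-PpoI mice, against 13.97, 13.3 and 16.5 FPKM in controls. Ebf1, a B cell transcription factor that stromal cells also make, was at 4.09, 3.67 and 6.30 FPKM in I-PpoI mice, against 16.1, 9.36 and 13.01 FPKM in controls. Cxcr5, a chemokine receptor of follicular B cells that shares exon sequence with a gene on the opposite strand, was high in I-PpoI mice 1 and 2, with 19.8, 5.73 and 0.248 FPKM in I-PpoI mice, against 0.966, 0.981 and 1.91 FPKM in controls, and is named after its values were seen.

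Most macrophage genes overlapped between the groups. C1qa, the A chain of C1q (ENSMUSG00000036887, chromosome 4, 136895917 to 136898803), was at 20.4, 91.8 and 65.3 FPKM in I-PpoI mice, against 3.57, 60.7 and 61.9 FPKM in controls. C1qb was at 14.3, 59.2 and 68.4 FPKM in I-PpoI mice, against 5.12, 47.7 and 58.1 FPKM in controls. C1qc was at 10.01, 48.2 and 28.0 FPKM in I-PpoI mice, against 1.25, 24.4 and 28.3 FPKM in controls. The groups overlapped in all 3 chains, and control mouse 1 was the lowest of the 6 libraries in each. The 3 chains assemble into 1 protein, and their sum was 44.7, 199 and 162 FPKM in I-PpoI mice, against 9.94, 132.7 and 148 FPKM in controls, of which C1qa made up 40.4 to 46.1% in I-PpoI mice and 35.9 to 45.7% in controls. Their log2 fold changes were 0.96 (SE 1.14), 0.62 (SE 1.02) and 1.08 (SE 1.10) for C1qa, C1qb and C1qc, with limma adjusted p from 0.430 to 0.623, and without control mouse 1 they were -0.29, -0.42 and -0.12.

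Control mouse 1 was the lowest of the controls in most members, macrophage genes among them. Relative to the mean of control mice 2 and 3, its macrophage genes ranged from 0.0475 for C1qc to 1.87 for Mrc1, and 16 of 17 were lower in it than in both other controls. The same ratio ran from 0.550 to 0.915 over the 5 B cell genes, from 0.0737 to 0.823 over the 8 T and NK cell genes, and was 0.259 for Laptm5 and 0.505 for Ptprc. Control mouse 1 was the lowest control in 8 of 8 T and NK cell, 4 of 5 B cell, 2 of 2 general leukocyte and 1 of 2 neutrophil genes. The share of all genes that were lowest in control mouse 1 was not computed, so these counts have no background beside them. Some rest on few fragments, with 1 for Klrb1c, 4 for Cd8a and 5 for Ncr1 in control mouse 1. Low ratios were found for Cx3cr1, the fractalkine receptor (0.0754), Adgre1, the F4/80 protein of mouse macrophages (0.0860), Itgax, the CD11c integrin (0.0865) and Fcer1g (0.0895). Milder ones were found for Cd14, the lipopolysaccharide co-receptor (0.461), and Csf1r (0.348). In control mouse 1 the C1q chains held 189 fragments together, against 2280 and 3088 in control mice 2 and 3, at a total depth within the range of the other controls.

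The signalling and lysosomal genes of myeloid cells were also low in control mouse 1. Fcer1g, the Fc receptor gamma chain, was at 5.71, 20.5 and 18.5 FPKM in I-PpoI mice, against 1.84, 21.6 and 19.5 FPKM in controls. Tyrobp, the DAP12 adaptor of macrophages and NK cells, was at 0, 10.7 and 20.3 FPKM in I-PpoI mice, against 1.95, 19.1 and 15.2 FPKM in controls. Its 0 in I-PpoI mouse 1 allows up to 3 fragments, which would be 2.80 FPKM, or more if only a remainder of its own fragments was counted there. Ctss, a lysosomal protease of antigen-presenting cells, was at 2.75, 7.91 and 44.2 FPKM in I-PpoI mice, against 5.15, 34.7 and 43.6 FPKM in controls. Lyz2, lysozyme, was at 5.69, 11.8 and 22.0 FPKM in I-PpoI mice, against 3.39, 22.03 and 24.3 FPKM in controls. In each of these genes I-PpoI mouse 1 and control mouse 1 were the lowest libraries and I-PpoI mouse 3 was close to control mice 2 and 3. I-PpoI mouse 2, the highest library for C1qa and C1qc, was below control mice 2 and 3 in Ctss, Tyrobp and Lyz2. Limma adjusted p was 0.748 for Fcer1g, 0.686 for Tyrobp, 0.517 for Ctss and 0.903 for Lyz2.

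Surface receptors of macrophages varied likewise. Adgre1 was at 1.35, 2.58 and 8.76 FPKM in I-PpoI mice, against 0.497, 3.56 and 8.00 FPKM in controls. Cd68, a lysosomal membrane protein, was at 6.94, 8.55 and 8.06 FPKM in I-PpoI mice, against 1.58, 7.24 and 10.2 FPKM in controls. Cd14 was at 4.32, 8.96 and 12.5 FPKM in I-PpoI mice, against 6.07, 15.8 and 10.6 FPKM in controls. The groups overlapped in all 3 genes. Itgax, Cx3cr1 and Fcgr1, the high-affinity IgG receptor, stayed at or below 3.45 FPKM in every library, and Itgam, the CD11b integrin, at or below 0.344 FPKM. Ly6c2, a surface protein of inflammatory monocytes, was at or below 1.14 FPKM in every library and is uncertain because its near-identical neighbor Ly6c1 can share its reads.

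Csf1r and Mrc1 differed from the other macrophage genes, in opposite directions. Csf1r, the receptor of the macrophage growth factor CSF1, was at 26.1, 24.2 and 15.2 FPKM in I-PpoI mice, against 3.78, 8.11 and 13.7 FPKM in controls. Its log2 fold change was 1.37 (SE 0.48, limma adjusted p = 0.125), and it was the 1 member whose I-PpoI libraries all lay above the controls as deposited, beside 2.24% of all genes tested. Csf1r shares exon sequence with Hmgxb3 on the opposite strand, and the higher values were those of I-PpoI mice 1 and 2, the libraries in which antisense models were high. Mrc1, the mannose receptor of macrophages that lymphatic and sinusoidal endothelium also makes, was at 4.60, 1.31 and 4.05 FPKM in I-PpoI mice, against 11.3, 4.67 and 7.42 FPKM in controls. It was highest in control mouse 1, where the C1q chains were lowest. Its I-PpoI libraries all lay below the controls, as in 45.1% of all genes tested, with I-PpoI mouse 1 close to control mouse 2 (log2 fold change -1.06, SE 0.48, limma adjusted p = 0.140). As a percentage of Cdh5, Mrc1 was at 2.31, 2.02 and 2.72% in I-PpoI mice and 3.46, 1.76 and 2.27% in controls, and the groups overlapped. Scaled to a common total without mitochondrial genes, both Csf1r and Mrc1 overlapped between the groups.

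**Figure D3:**
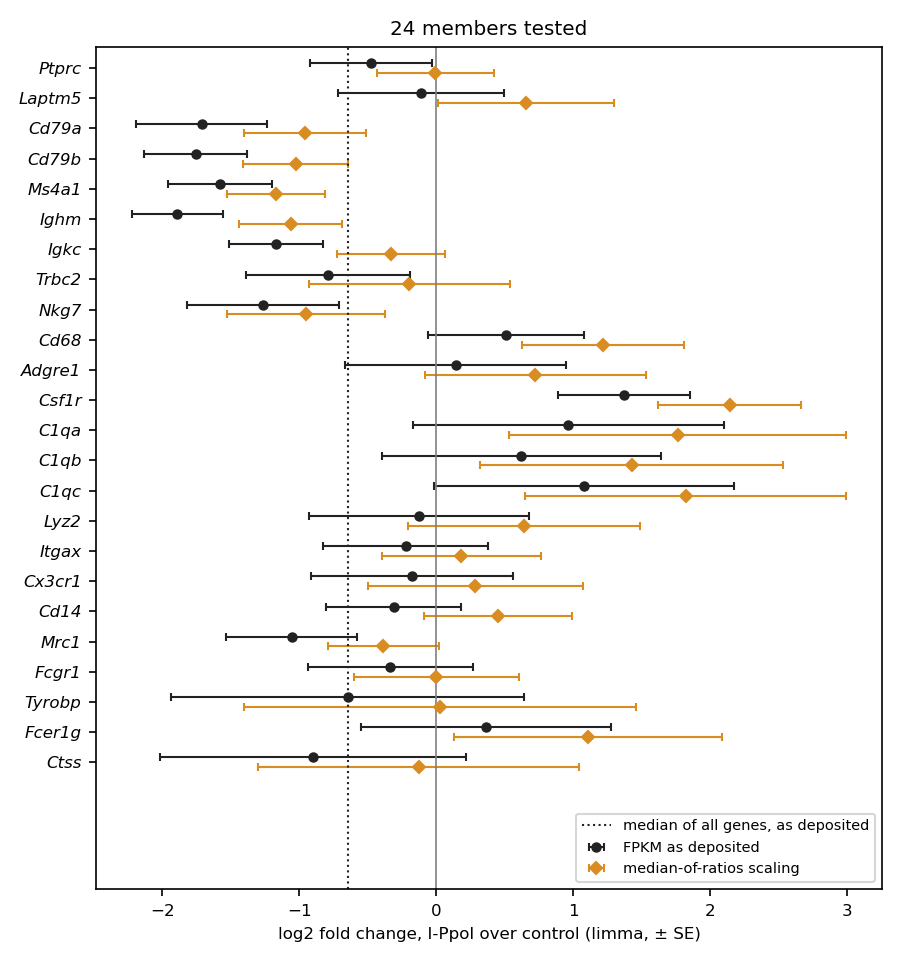
Log2 fold change of I-PpoI over control (x axis, limma, bars are SE) for the 24 members tested, from FPKM as deposited (circles) and with median-of-ratios scaling (diamonds), with the median of all genes as deposited at -0.65 (dotted line). The 5 B cell genes lie below 0 on both scales, and Laptm5, Lyz2, Itgax, Cx3cr1, Cd14, Fcgr1 and Tyrobp change side with the scaling.

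Of the 15 macrophage genes tested, 7 lay above 0 and 8 below as deposited, with a median of -0.12, and 13 lay above 0 with median-of-ratios scaling, with a median of 0.64; the medians of all genes were -0.65 and 0.015. With that scaling 2 had I-PpoI libraries all above the controls, Cd68 and Csf1r, against 7.65% of all genes. From the list of 28 other macrophage and monocyte genes, 18 were tested and 0 passed, and their median was -0.42 as deposited and 0.27 scaled. The most abundant of these were Plac8, at 4.31, 2.25 and 20.9 FPKM in I-PpoI mice, against 32.1, 72.2 and 37.8 FPKM in controls, and Ace, an enzyme that endothelium and tubules also make, at 15.4, 6.32 and 18.99 FPKM in I-PpoI mice, against 36.8, 20.2 and 29.5 FPKM in controls. Marco, Timd4 and Vsig4, receptors of other resident macrophages, were listed at 0 in every library.

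Because a ratio within a library does not move with its scaling, B cell and macrophage genes were set against each other in recovered fragments. Of the fragments on B cell and macrophage members without Csf1r, the B cell genes took 37.0% in I-PpoI mouse 1 (316 fragments; the 95% interval, exact by Clopper-Pearson, was 31.7 to 42.6%), 19.3% in I-PpoI mouse 2 (15.4 to 23.6%, 374 fragments) and 16.2% in I-PpoI mouse 3 (15.3 to 17.1%, 6939 fragments). In the controls they took 65.2% in mouse 1 (63.9 to 66.5%), 43.97% in mouse 2 (42.96 to 44.98%) and 41.6% in mouse 3 (40.8 to 42.5%). The I-PpoI libraries all lay below the controls, although the interval of I-PpoI mouse 1 reached above the value of control mouse 3. With Csf1r included the share was 20.97, 14.7 and 13.9% in I-PpoI mice, against 61.2, 41.1 and 37.7% in controls. Over the members clear of opposite-strand genes it was 38.97, 21.2 and 17.9% in I-PpoI mice, against 64.6, 46.9 and 43.03% in controls. For Cd79a, Cd79b and Ms4a1 against the 3 C1q chains alone it was 29.7, 4.07 and 5.93% in I-PpoI mice, against 81.4, 31.5 and 31.5% in controls. The intervals cover counting error only, and these shares were looked at after the values were seen and are given with no test.

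**Figure D4:**
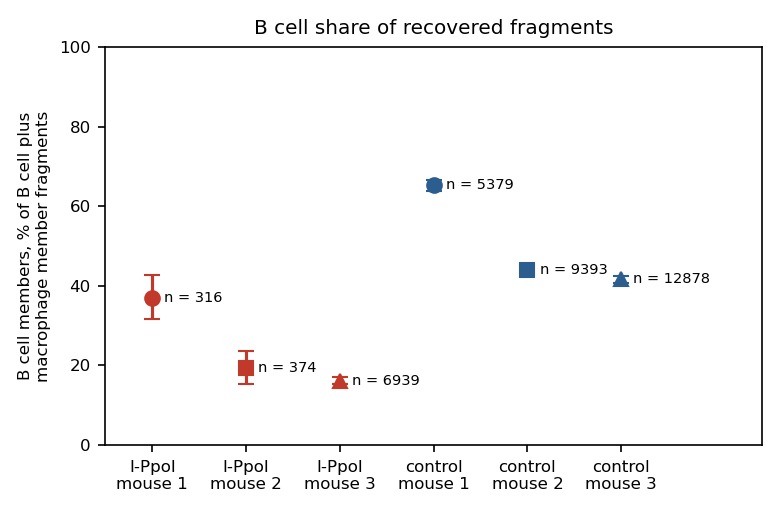
B cell genes as a percentage of fragments on B cell and macrophage members without Csf1r (y axis), by library (x axis), with 95% exact intervals and the number of fragments. The I-PpoI libraries lie at 37.0, 19.3 and 16.2%, below the control libraries at 65.2, 43.97 and 41.6%.

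T and NK cell genes were near the limit of detection. Trbc2, a constant region of the T cell receptor beta chain that can share reads with its copy Trbc1, was at 0, 3.45 and 2.60 FPKM in I-PpoI mice, against 2.95, 3.59 and 3.58 FPKM in controls. Nkg7, a granule protein of cytotoxic cells, was at 0, 0 and 1.40 FPKM in I-PpoI mice, against 0.880, 3.27 and 3.16 FPKM in controls. Both were tested and neither passed (limma adjusted p = 0.308 for Trbc2 and 0.137 for Nkg7). A 0 in I-PpoI mice 1 and 2 allows up to 3 fragments, which for Nkg7 would be 2.05 and 3.92 FPKM. It would be more if only a remainder of the gene's own fragments was counted there. A level like that of the controls was therefore not detectable in I-PpoI mouse 2, and may not have been in I-PpoI mouse 1. The CD3 chains Cd3e and Cd3d and the co-receptors Cd4 and Cd8a stayed at or below 1.13 FPKM in every library. In I-PpoI mouse 3, the I-PpoI library with the most assigned fragments, Cd3e had 38 fragments and Cd4 had 34, against 16 to 54 and 27 to 77 in controls. The NK receptors Ncr1 and Klrb1c were at 0.0487 and 0.101 FPKM in I-PpoI mouse 3, against 0.201 to 1.11 and 0.0209 to 0.288 FPKM in controls. Ncr1 had 1 fragment there, and 5 fragments in I-PpoI mouse 1.

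Relative to B cell genes, T and NK cell genes took 7.87, 5.26 and 11.4% of the fragments on both in I-PpoI mice, against 3.12, 4.73 and 5.62% in controls, so that the groups overlapped. The exact interval was 3.84 to 14.004% in I-PpoI mouse 1, 1.45 to 12.9% in I-PpoI mouse 2 and 9.67 to 13.2% in I-PpoI mouse 3, on 10, 4 and 144 T and NK cell fragments. In the controls the interval was 2.58 to 3.74% in mouse 1, 4.12 to 5.40% in mouse 2 and 5.03 to 6.25% in mouse 3. Of the 25 other T and NK cell genes, 8 were tested and 0 passed, with a median of -0.51. The most abundant was Cd247, the CD3 zeta chain, at 26.1, 14.8 and 0.648 FPKM in I-PpoI mice, against 0.616 to 1.13 FPKM in controls, and it shares exon sequence with Pou2f1 on the opposite strand. Trac, the alpha chain constant region, was at 0, 1.28 and 3.13 FPKM in I-PpoI mice, against 1.99, 5.32 and 4.73 FPKM in controls.

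Neutrophil genes had few fragments in any library. S100a8 had 0, 0 and 4 fragments in I-PpoI mice, against 0, 7 and 7 in controls, and its partner S100a9 had 0, 0 and 19 fragments in I-PpoI mice, against 9, 0 and 9 in controls. These proteins form calprotectin and are abundant in neutrophils. Neither gene was tested. With 0 fragments, S100a8 could have reached 2.70 FPKM in I-PpoI mouse 1 and 5.16 FPKM in I-PpoI mouse 2 (3 fragments), above every control value. The level could be higher still if only a remainder of its own fragments was counted there. Of 18 other neutrophil genes, 3 were tested and 0 passed, with a median of -0.60, and Elane, Mrgpra2b, Ngp and Stfa1 were at 0 in every library. The most abundant, Hdc and Ltf, were at 3.85 FPKM or less in every library.

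Genes of leukocytes in general overlapped between the groups. Ptprc (chromosome 1, 138062861 to 138175708) was at 0.817, 0.587 and 2.19 FPKM in I-PpoI mice, against 1.22, 1.64 and 3.21 FPKM in controls. Laptm5, a lysosomal protein of blood cells, was at 6.25, 10.1 and 17.1 FPKM in I-PpoI mice, against 4.53, 14.7 and 20.3 FPKM in controls. Limma adjusted p was 0.395 for Ptprc and 0.882 for Laptm5. As a percentage of Cdh5 in the same library, Ptprc was at 0.410, 0.902 and 1.47% in I-PpoI mice, against 0.373, 0.617 and 0.980% in controls. From a list of 16 further genes shared by leukocytes, 15 were tested and 0 passed, with a median of -0.44 as deposited and 0.30 scaled. Coro1a, an actin regulator, was at 11.9, 9.86 and 11.8 FPKM in I-PpoI mice, against 8.67, 23.3 and 19.9 FPKM in controls, and Arhgdib at 8.04, 10.5 and 13.3 FPKM in I-PpoI mice, against 19.7, 21.9 and 26.3 FPKM in controls. Both share exon sequence with a gene on the opposite strand. Arhgdib was the 1 gene of the 15 tested whose groups did not overlap, on the lower side, which was so for 45.1% of all genes tested.

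One gene of each lineage was compared relative to Ptprc with an exact two-sided permutation test, for which 0.10 is the smallest p with 3 against 3. The log2 ratio of Cd79a to Ptprc, on FPKM + 1, was 2.63, 1.43 and 0.62 in I-PpoI mice, against 2.65, 3.10 and 2.66 in controls (difference -1.24, exact p = 0.10). Every I-PpoI ratio lay below every control ratio, I-PpoI mouse 1 by a small margin. With a pseudocount of 0.5 or of 0.1 the groups overlapped (exact permutation p = 0.30 with either). For C1qa the log2 ratio was 3.56, 5.87 and 4.38 in I-PpoI mice, against 1.04, 4.55 and 3.90 in controls (difference 1.44, exact p = 0.50), and without control mouse 1 the difference was 0.38. Cd3e differed by 0.36 (exact p = 0.30) and S100a8 by 0.16 (exact p = 0.70). Adjusted over these 4 comparisons, p was 0.40 for Cd79a and 0.60 to 0.70 for the others.

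Relative to Cdh5 in place of Ptprc, 4 of the 5 B cell genes overlapped between the groups. Cd79a stood at 5.16, 5.04 and 2.62% of Cdh5 in I-PpoI mice, against 3.95, 8.12 and 7.80% in controls, and the difference of the log2 ratios was -0.43 (exact permutation p = 0.50). Ighm stood at 6.81, 34.1 and 15.6% of Cdh5 in I-PpoI mice, against 19.4, 27.8 and 26.2% in controls. Ms4a1 did not overlap, at 0.202, 0.297 and 0.309% in I-PpoI mice, against 0.910, 0.738 and 1.39% in controls. It rests on 4, 1 and 38 fragments in I-PpoI mice. How many of all genes overlapped on this scale was not computed. C1qa stood at 10.2, 141 and 43.8% of Cdh5 in I-PpoI mice, against 1.09, 22.8 and 18.9% in controls, and the difference of the log2 ratios was 2.25 (exact permutation p = 0.30). Cdh5 has a gene within 5 kb on the opposite strand and was itself lower in I-PpoI mice by a log2 fold change of -1.29 (limma adjusted p = 0.127).

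**Figure D5:**
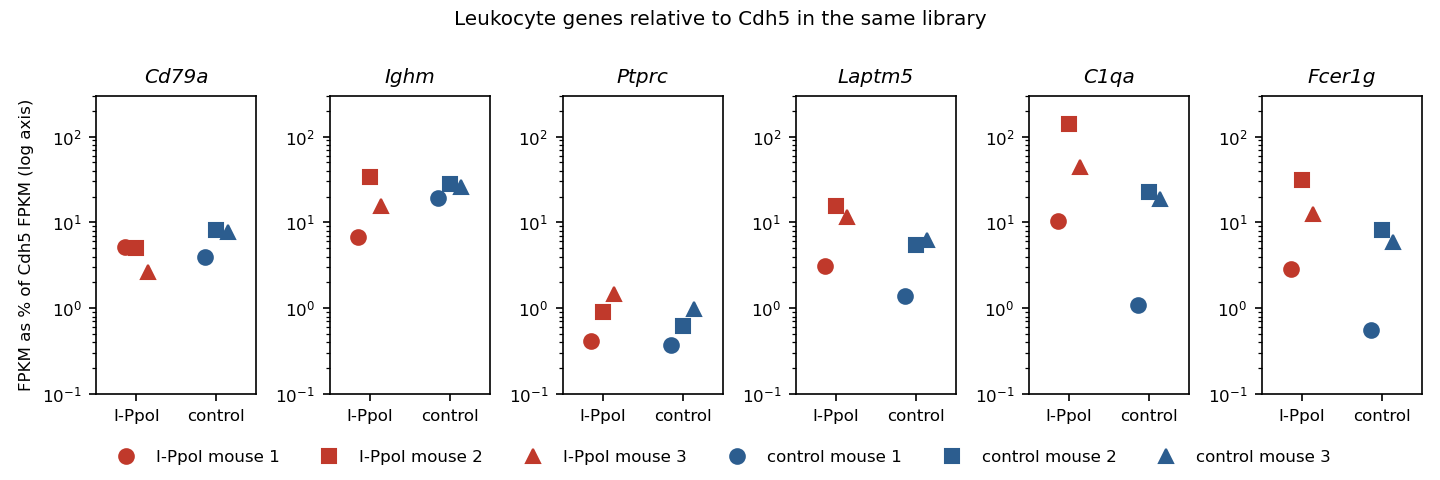
FPKM of 6 members as a percentage of Cdh5 FPKM in the same library (log axis), by group and mouse. Cd79a and Ighm overlap between I-PpoI and control mice, and C1qa spans 1.09% in control mouse 1 to 141% in I-PpoI mouse 2.

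Summed over their lists, B cell members came to 73.1, 91.8 and 82.8 FPKM in I-PpoI mice, against 176, 269 and 262 FPKM in controls. Macrophage members summed to 102.6, 299 and 324 FPKM in I-PpoI mice, against 46.4, 276 and 310.2 FPKM in controls. The 12 endothelial genes on file for comparison summed to 1970, 666.5 and 1252 FPKM in I-PpoI mice, against 2759, 2999 and 2570 FPKM in controls. All 34 members together summed to 9.42, 60.8 and 34.8% of these endothelial genes in I-PpoI mice, against 8.49, 19.1 and 23.7% in controls. In I-PpoI mouse 3 taken alone, 5 of 5 B cell genes were below every control, while 8 of 17 macrophage genes were above every control, 8 were within the controls and Mrc1 was below them. In the same library 70.7% of all genes tested were below every control and 6.17% above, so the B cell count is near what most genes did there.

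Genes listed for other blood lineages were also detected in places. Of 12 dendritic cell genes 5 were tested and 0 passed, with a median of -0.48. Bst2, which interferon also induces in other cells, was at 136.7, 76.7 and 74.0 FPKM in I-PpoI mice, against 153.7, 273 and 140.4 FPKM in controls. Clec9a was at 96.4, 31.9 and 0.661 FPKM in I-PpoI mice, against 0.545 to 0.906 FPKM in controls, and lies within 5 kb of Clec1a on the opposite strand. Of 12 platelet and red cell genes 8 were tested and 0 passed, with a median of -1.45. The globin gene Hbb-bs was at 30.9, 74.6 and 113.9 FPKM in I-PpoI mice, against 310.01, 427 and 114.8 FPKM in controls, and Hba-a1 at 59.1, 104.4 and 76.4 FPKM in I-PpoI mice, against 271, 405 and 97.1 FPKM in controls. Of 7 mast cell and basophil genes 1 was tested and did not pass, Cpa3, at 5.34, 0.787 and 0 FPKM in I-PpoI mice, against 0.0408 to 0.428 FPKM in controls, and Ms4a2 stayed at or below 1.70 FPKM.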

How the data were processed

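Per the labels' protocols, total RNA of CD31-sorted kidney cells from 6 mice was read in paired ends of 100 cycles. The authors deposited 1 table of FPKM per gene, normalized to fragments and gene length. The submitters' processing notes name DESeq2 and the builds mm10 and GRCm38, while for aligner, counter and strand no name was given in the sources used here. FPKM times exon length in GENCODE M21 (55141 genes with a length) was divided by a constant for each library. The constant was fitted to give whole numbers. The result was whole, within 0.05, in 98.5 to 98.6% of the values below 1000 fragments. Limma (trend) took log2(FPKM + 1) of every gene averaging 1 FPKM or more, with Benjamini-Hochberg adjustment over all of them and a threshold of 0.05; fold changes of low genes are understated by the pseudocount. With FPKM as the unit no count model was the main test. Named genes are all members, the 2 most abundant genes of each other leukocyte list, Cdh5, Pecam1 and Lrp2; outside this rule, Xist and Ddx3y are named for sex, and Cxcr5 and the genes listed at 0 after their values were seen. Members and lists were chosen with earlier results of these data known. Alternatives covered pseudocount, filter, scaling, the replicate block, protein-coding genes, limma-voom, and libraries left out; the strand-clear set and ratios to Cdh5 were added after the values were seen. The labels describe separate mice. Promoters are from RefSeq. Tools were R 4.3.3, limma 3.58.1, scipy 1.17.1, pandas 2.3.3, numpy 2.4.6, matplotlib 3.10.9 and python 3.11.15.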

Additional observations from a re-analysis of the deposited data

How the results depend on the processing

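The count of 0 genes over all genes held under the other pseudocounts, filters and scalings, with protein-coding genes, with limma-voom on recovered fragments, over strand-clear genes and with the replicate block. Leaving out I-PpoI mice 1 and 2 gave 22, in a fit that takes the spread of the lone I-PpoI library from the controls, and the count was 0 to 8474 with 1 library left out. Members past the threshold were 0 to 7 of 24 and other leukocyte genes 0 to 26 of 72 with 1 library left out. Each was highest without I-PpoI mouse 3, in a fit that called 8474 of all 14962 genes tested and keeps only I-PpoI mice 1 and 2. With the replicate block 0 members passed. Deviations from the group mean correlated at 0.089, 0.063 and -0.020 between same-numbered libraries over all genes tested. With 3 libraries per group, these values cannot settle whether the numbers pair mice. The 5 B cell genes kept their direction in all 84 alternative fits, which reuse the same libraries. The filter, protein-coding and replicate-block fits return the main fold change (-1.71 for Cd79a), so they could not turn it. The median over all genes was itself below 0 in every setting except median-of-ratios scaling and limma-voom. Of 411 fits of single members, 56 turned the direction, in 15 members, and the cause was not tested. With median-of-ratios scaling these were Laptm5 (0.65), Lyz2 (0.64), Cd14 (0.45), Cx3cr1 (0.28), Itgax (0.18), Tyrobp (0.025) and Fcgr1 (0.00074), and with quantile normalization Laptm5 (0.19), Lyz2 (0.17), Cx3cr1 (0.073) and Cd14 (0.029). With limma-voom they were Itgax (1.65), Cx3cr1 (1.52), Tyrobp (1.31), Lyz2 (1.24), Ctss (1.15), Fcgr1 (1.12), Laptm5 (0.92), Cd14 (0.80) and Ptprc (0.58). Without I-PpoI mice 1 and 2 they were Tyrobp (1.11), Ctss (1.08), Lyz2 and Cx3cr1 (0.75 each), Fcgr1 (0.57), Laptm5 (0.56), Itgax (0.53), Cd14 (0.28) and Ptprc (0.13). In the strand-clear set they were Laptm5 (0.93), Lyz2 (0.91), Cd14 (0.72), Itgax (0.31), Ptprc (0.15) and Ctss (0.14). With 1 library left out the log2 fold changes ranged from -0.69 to 0.28 for Laptm5, -0.12 to 0.94 for Cd68, -0.56 to 0.73 for Adgre1, -0.29 to 1.60 for C1qa, -0.42 to 1.31 for C1qb, -0.12 to 1.73 for C1qc, -0.94 to 0.33 for Lyz2, -0.71 to 0.17 for Itgax, -0.74 to 0.43 for Cx3cr1, -0.64 to 0.062 for Cd14, -0.79 to 0.026 for Fcgr1, -1.53 to 0.68 for Tyrobp and -0.61 to 0.90 for Fcer1g. The ratio of S100a8 to Ptprc was -0.34 at a pseudocount of 0.1, -0.098 without I-PpoI mice 1 and 2, and -0.0073 to 0.38 with 1 library left out. The few assigned fragments of I-PpoI mice 1 and 2 limit the precision of most members there.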
